A study of Mus musculus with 18 samples.

Results

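The proteasome genes of this study were taken by name: every gene symbol that starts with Psma, Psmb, Psmc, Psmd, Psme, Psmf or Psmg and continues with a digit, without the inducible catalytic subunits Psmb8, Psmb9 and Psmb10. The rule found 47 of the 24072 genes in the count table of the stress spleen and 46 of the 10702 genes in the table that compares both kinds of burst-forming erythroid progenitor, where Psmb11 was absent. By role, 8 encode subunits of the alpha ring, 8 of the beta ring, 6 of the ATPase ring and 11 of the rest of the regulatory particle. A further 6 encode activators or an inhibitor of the core, and 7 encode assembly chaperones. The symbol rule also took Psmc3ip, a partner of a homologous recombination factor, which is not a proteasome subunit. Of the 47 genes, 45 had a mean of at least 50 counts over the 9 spleen libraries and entered the spleen tests, and Psmb11 and Psme2 fell below that mean.

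RNA was sequenced from 4 sorted B6SJL mouse populations with 3 libraries each. Stress multipotent progenitors (MPP), stress burst-forming unit-erythroid cells (BFU-E) and stress colony-forming unit-erythroid cells (CFU-E) came from the spleen at day 8, when mice had been lethally irradiated and had received bone marrow that was not fractionated. Their counterpart was the BFU-E of steady-state bone marrow (BM). Lineage-positive cells were removed from all populations before the flow cytometric sort, and the BM sorts used a different fluorophore for the biotinylated antibodies, so that tissue, transplantation and staining cannot be told apart between the BFU-E populations. Chromatin accessibility was measured by ATAC-seq in stress and BM BFU-E. The labels do not say whether the libraries of a population came from separate animals, so p-values measure the spread between these libraries, which may be technical.

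The 26S proteasome degrades proteins that carry ubiquitin chains. Its core is a barrel of alpha and beta rings with the proteolytic sites on the inner face of the beta rings, and its regulatory particle binds substrates, removes ubiquitin and unfolds them with a ring of ATPases. Red cell precursors are known for clearing much of their proteome as they mature, and the ubiquitin-proteasome system takes part in that clearance.

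Total counts were 5937778 to 13197159 per spleen library. In the BFU-E table they were 10555143 to 12926718 in stress libraries and 6758871 to 9463498 in BM libraries. The BM libraries held more genes without a read, at 5.81%, 1.53% and 15.3% of the genes in that table, against 0.420% to 0.738% in stress libraries. The biological coefficient of variation was 0.704 in the BFU-E fit and 0.25 in the spleen fit. Summed levels of erythroid markers were 553 to 627 CPM (counts relative to the TMM-adjusted library size) in MPP, 524 to 598 CPM in BFU-E and 2094 to 2125 CPM in CFU-E. All 10 erythroid markers were detected in each population. In the BFU-E table, 6 of those 10 markers were listed, and they summed to 528 to 604 CPM in stress BFU-E and 391 to 577 CPM in BM BFU-E.

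Levels of different genes were compared as RPKM, which divides by transcript length. In stress spleen BFU-E the median proteasome gene stood at 33.3 RPKM, against 8.03 RPKM for all 10166 genes of the spleen fit. Psme1, a subunit of the interferon-inducible 11S activator, was highest at 139 ± 11.6 RPKM (SD, n = 3 for this and the following means). It was followed by the alpha-ring subunit Psma7 at 96.4 ± 0.785 RPKM, the ubiquitin receptor Psmd4 at 85.7 ± 14.2 RPKM and the ATPase Psmc3 at 80.7 ± 8.04 RPKM. Psmd7, a scaffold partner of the deubiquitinating subunit Psmd14, stood at 75.2 ± 8.79 RPKM. The spread of Psmd4 overlapped with that of Psma7, and those of Psmd4, Psmc3 and Psmd7 overlapped with each other, so that these orders are not resolved.

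By role, the median over genes in stress BFU-E was 44.4 RPKM for the ATPase ring and 44.3 RPKM for the other regulatory particle subunits. It was 38.3 RPKM for the alpha ring and 35.1 RPKM for the beta ring. The assembly chaperones, which help build the rings and are not kept in the finished particle, stood lower at 17.8 RPKM, and the activators and inhibitor had a median of 13.3 RPKM with a range of 3.51 to 139 RPKM. In the series MPP, BFU-E and CFU-E, the median over all 47 genes was 32.9, 33.3 and 40.6 RPKM, while that of all genes in the fit was 8.23, 8.03 and 7.82 RPKM.

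**Figure D1:**
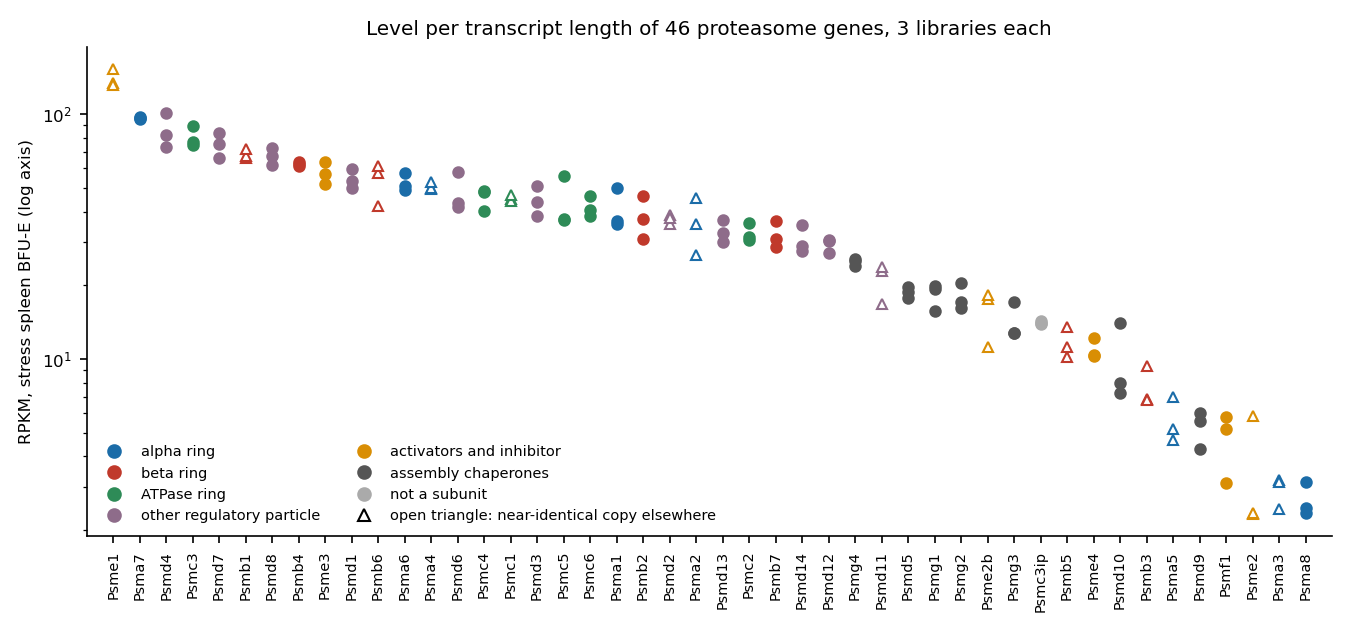
RPKM (log axis) of 46 proteasome genes in the 3 stress spleen BFU-E libraries, ordered by their mean and coloured by role. Open triangles mark genes with a near-identical copy elsewhere in the genome; Psmb11, at or near 0 RPKM, is left out. Psme1 stands highest at a mean of 139 RPKM and Psma8 lowest of those drawn at 2.65 RPKM.

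At the low end, Psmb11, the beta subunit of the thymus proteasome, was listed at 0 RPKM in all 9 spleen libraries but 1 of the BFU-E. Psma8, the alpha subunit of the testis proteasome, stood at 2.65 ± 0.424 RPKM. Psma3, a subunit of every proteasome, stood nearly as low at 2.92 ± 0.419 RPKM. The Psma3 transcript has 3 other copies in the genome, the closest with 96.6% identity. In all, 14 of the 47 genes had another copy with at least 90% identity over at least 50% of the transcript or 500 bases, among them Psmb3 with 5 copies, Psma5 with 2 and Psmb5 with 2. How the authors counted reads that map to several places is not given in the sources used here, so the levels of these 14 genes are uncertain. Of the lowest 10 genes, 4 had such a copy. The median in stress BFU-E was 28.5 RPKM for the 14 genes with a copy, against 33.3 RPKM for the 33 without. Psme2 and Psme2b share 99.4% of their matched bases, and their 3.51 ± 2.04 RPKM and 15.7 ± 3.90 RPKM cannot be assigned between them.

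Chromosome 11 carries 10 of the proteasome genes, chromosomes 2 and 14 carry 6 each and chromosome 7 carries 4. Some are close neighbours on chromosome 14. Psme1 (chr14:55578494-55581527) lies beside Psme2 (chr14:55587440-55591021), and Psmb5 (chr14:54614120-54617995) lies beside Psmb11 (chr14:54625310-54629556). The bodies of 7 overlap another gene, and in 4 of these the partner lies on the opposite strand (Psma4, Psmc3ip, Psmd1 and Psme1). The counting strand is not given in the sources used here.

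Because subunit genes are known to share control by factors that bind close to their start sites, the promoters were read for short motifs. RefSeq promoters (GRCm38.p6, 250 bases before to 50 after the start) were at hand for 39 of the 47 genes. The 8 without one were Psma8, Psmb1, Psmb2, Psmb7, Psmc3, Psmd3, Psmd7 and Psmg2. Of these, Psmd3 and Psmd7 are called higher in CFU-E than in BFU-E below. The motifs searched, on both strands, were TGACNNNGC (the core of the antioxidant response element, bound by Nfe2l1 and Nfe2l2), the looser TGANNNNGC that contains every match of the first, CCGGAAGT (an ETS factor motif), CCAAT and GGGCGG (the GC box). The 150 bases before the start are shown for 5 genes. TGACNNNGC was found in the catalytic subunits Psmb5 and Psmb6. CCGGAAGT was found in Psmc2 and Psmd6, whose RNA was higher in CFU-E. The other genes with CCGGAAGT were not called between CFU-E and BFU-E, and a link of motif and level was not tested. Neither motif was found in Psmd5, which among the called proteasome genes had the largest fold change in CFU-E against either other population. Each reads 5′ to 3′ on the strand of its gene, with the match in capitals.

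Psmb5, chr14:54617996-54618145, minus strand: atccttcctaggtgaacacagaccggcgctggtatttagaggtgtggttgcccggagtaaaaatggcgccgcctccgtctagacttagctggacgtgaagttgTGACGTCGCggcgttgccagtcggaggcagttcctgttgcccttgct
Psmb6, chr11:70525207-70525356, plus strand: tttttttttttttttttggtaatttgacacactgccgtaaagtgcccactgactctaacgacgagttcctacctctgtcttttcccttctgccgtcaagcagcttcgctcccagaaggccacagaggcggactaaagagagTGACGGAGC
Psmc2, chr5:21785125-21785274, plus strand: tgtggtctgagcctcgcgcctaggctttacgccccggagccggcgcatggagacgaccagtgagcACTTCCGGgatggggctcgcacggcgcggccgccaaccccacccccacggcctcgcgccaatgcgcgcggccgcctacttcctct
Psmd6, chr14:14120946-14121095, minus strand: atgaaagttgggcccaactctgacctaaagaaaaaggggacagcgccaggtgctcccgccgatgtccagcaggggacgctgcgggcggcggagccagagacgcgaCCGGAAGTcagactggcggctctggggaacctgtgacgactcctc
Psmd5, chr2:34870963-34871112, minus strand: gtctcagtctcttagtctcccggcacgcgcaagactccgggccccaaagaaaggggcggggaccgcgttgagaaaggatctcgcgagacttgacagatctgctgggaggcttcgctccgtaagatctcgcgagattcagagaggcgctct

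The RefSeq start lies 8 bases from that of the count table for Psmc2 and 41 bases from it for Psmd6, and the 2 sources share the start for the other genes shown. Counted from the first transcribed base as 0, the TGACNNNGC match began at position -47 in Psmb5 and at -9 in Psmb6, both on the strand of the gene. CCGGAAGT began at -85 in Psmc2, on the opposite strand, and at -45 in Psmd6. TGACNNNGC was present in 6 of the 39 promoters (15.4%), against 15.3% of the promoters of 7830 expressed genes and 13.3% of all 17038 promoters. The 6 belong to Psmb5, Psmb6, Psmc6, Psmd12, Psmd9 and Psme4. The looser TGANNNNGC was found in 21 (53.8%), against 43.2% of expressed and 41.6% of all promoters. CCGGAAGT was present in 9 (23.1%), against 9.89% of expressed and 5.44% of all promoters. These 9 were Psma6, Psmc1, Psmc2, Psmd12, Psmd13, Psmd6, Psme3, Psme4 and Psmg3, from every role group but the beta ring, of which 5 promoters were at hand. CCAAT was found in 13 (33.3%), against 39.0% and 38.6%, and GGGCGG in 22 (56.4%), against 67.9% and 47.8%. These shares describe the letters of the window and show no binding.

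ATAC-seq peaks annotated to a proteasome gene within 1 kb of its start were present for 35 of 47 genes in the stress BFU-E list and for 34 in the BM BFU-E list. For 33 genes a peak was present in both, and each of those pairs overlapped. Among the 10162 genes with a mean of at least 50 counts and a start to measure from, 84.6% had such a peak in stress BFU-E and 80.7% in BM BFU-E. A peak that reached within 1 kb of the start, whichever gene the authors annotated it to, was present for 42 of the 47 proteasome genes in stress BFU-E (89.4%) and for 41 in BM BFU-E (87.2%), against 95.2% and 91.5% of the same 10162 genes. The 5 without any were Psma8, Psmb11, Psmc1, Psmd9 and Psme2b, which include both tissue-restricted subunits and the copy-like Psme2b. Psmg3, an assembly chaperone of the core, had a peak in the stress list alone, with an authors' score of 932. Scores reached their cap of 1000 in 34 of the 35 stress peaks and in 29 of the 34 BM peaks, and the median peak width was 1035 bp in stress BFU-E and 1056 bp in BM BFU-E. The 5 promoters printed above had a peak that reached within 1 kb in both lists, whichever gene it was annotated to. For Psmc2, no peak within 1 kb was annotated to the gene itself in either list. The lists were merged per population by the authors and held 61661 distinct intervals for stress BFU-E and 35142 for BM BFU-E, and whether the lengths of the lists bear on Psmg3 was not tested.

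Between CFU-E and BFU-E of the stress spleen, 6 of the 45 tested genes were higher in CFU-E and 0 were lower by edgeR's quasi-likelihood test at an adjusted p under 0.05. Among all 10166 genes, 21.1% were called, 9.17% higher and 11.9% lower. DESeq2 called 10 higher and 1 lower, against 12.6% and 14.7% of all genes it tested (27.3% in either direction), and 15 genes had an unadjusted p under 0.05 (33.3%, against 31.8% of all genes). The 6 were Psmd7, Psmd5, Psmc2, Psme2b, Psmd6 and Psmd3. By role, the calls were 3 of 11 other regulatory particle subunits, 1 of 6 ATPase, 1 of 7 chaperone and 1 of 5 activator or inhibitor genes. The log2 fold change was above 0 for 41 of the 45 genes (91.1%, against 49.8% of all genes), and its median was 0.23, against a median of 0 over all genes. In 17 genes every CFU-E library stood above every BFU-E library (37.8%, against 18.2% of all genes), and in 2 every one stood below (4.44%, against 19.3%). The share called higher, 13.3%, was thus not far from the 9.17% of all genes, while 0 were called lower, against 11.9%. The share above 0 was far from that of all genes.

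Psmd7 had 361, 353 and 368 CPM in CFU-E, against 236, 201 and 220 CPM in BFU-E. The groups did not overlap, and the BFU-E libraries lay close to the 255, 234 and 247 CPM of MPP. The log2 fold change was 0.72 ± 0.10 (SE; edgeR adjusted p = 1.44e-05), which is 1.65-fold, and the gene was also called with any single library left out. Psmd7 spans chr8:107580380-107588482 on the minus strand (mm10, as for all gene positions here).

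Psmd5, a chaperone that helps assemble the ATPase ring, had 122, 136 and 99.0 CPM in CFU-E, against 67.3, 76.5 and 66.2 CPM in BFU-E. The lowest CFU-E library stood above the highest BFU-E library, for a log2 fold change of 0.77 ± 0.16 (edgeR adjusted p = 0.00116), and the call held with any single library left out. The gene spans chr2:34852089-34870962 on the minus strand. It is the gene whose promoter, shown above, held neither of the motifs marked there. Psmc2, an ATPase of the ring (chr5:21785283-21803784, plus strand), had 163, 156 and 145 CPM in CFU-E, against 113, 106 and 98.8 CPM in BFU-E. These groups were apart as well, and the log2 fold change was 0.55 ± 0.13 (edgeR adjusted p = 0.00356), again with any single library left out.

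The other 3 calls were each lost without any of several single libraries. Psme2b was called in 3 of the 6 fits that left out a library, and Psmd3 and Psmd6 in 2 each. Psmd6, a non-ATPase subunit of the lid (chr14:14112185-14120904, minus strand), had 153, 159 and 144 CPM in CFU-E, against 131, 102 and 102 CPM in BFU-E. Its log2 fold change was 0.44 ± 0.13 (edgeR adjusted p = 0.0224). Psmd3, another lid subunit (chr11:98682554-98695978, plus strand), had 255, 240 and 189 CPM in CFU-E, against 192, 178 and 149 CPM in BFU-E. The lowest CFU-E library lay just below the highest BFU-E library, and the log2 fold change was 0.40 ± 0.13 (edgeR adjusted p = 0.0315). Psme2b, related to the activator subunit Psme2, had 49.4, 46.7 and 53.6 CPM in CFU-E, against 32.9, 36.8 and 21.7 CPM in BFU-E libraries (log2 fold change 0.71 ± 0.22, edgeR adjusted p = 0.0247), and it is 1 of the genes with a near-identical copy. Without BFU-E library 3 the adjusted p was 0.142 for Psme2b, 0.176 for Psmd3 and 0.11 for Psmd6, and 3 genes were called. Without CFU-E library 1 the number called was also 3.

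The core barrel gave no call in this step. All 7 tested beta-ring genes had a log2 fold change above 0, from 0.11 to 0.57, and 6 of the 8 alpha-ring genes did, with a median of 0.21. The most abundant of each ring by CPM were Psma7, with 231, 168 and 176 CPM in CFU-E against 161, 175 and 167 CPM in BFU-E, and Psmb1, with 164, 149 and 126 CPM in CFU-E against 120, 132 and 136 CPM in BFU-E. For both genes the groups overlapped. Psma8, the testis subunit, had 4.11, 3.22 and 6.71 CPM in CFU-E and 7.33, 7.57 and 9.68 CPM in BFU-E, so that every CFU-E library was the lower (log2 fold change -0.81 ± 0.61, edgeR adjusted p = 0.4). Psmd8, a lid subunit, also stood lower in each CFU-E library, at 151, 160 and 141 CPM, against 194, 178 and 185 CPM in BFU-E. Its log2 fold change of -0.30 ± 0.12 missed the threshold with edgeR (adjusted p = 0.087) and passed it with DESeq2 (adjusted p = 0.034). It is the gene DESeq2 called lower.

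**Figure D2:**
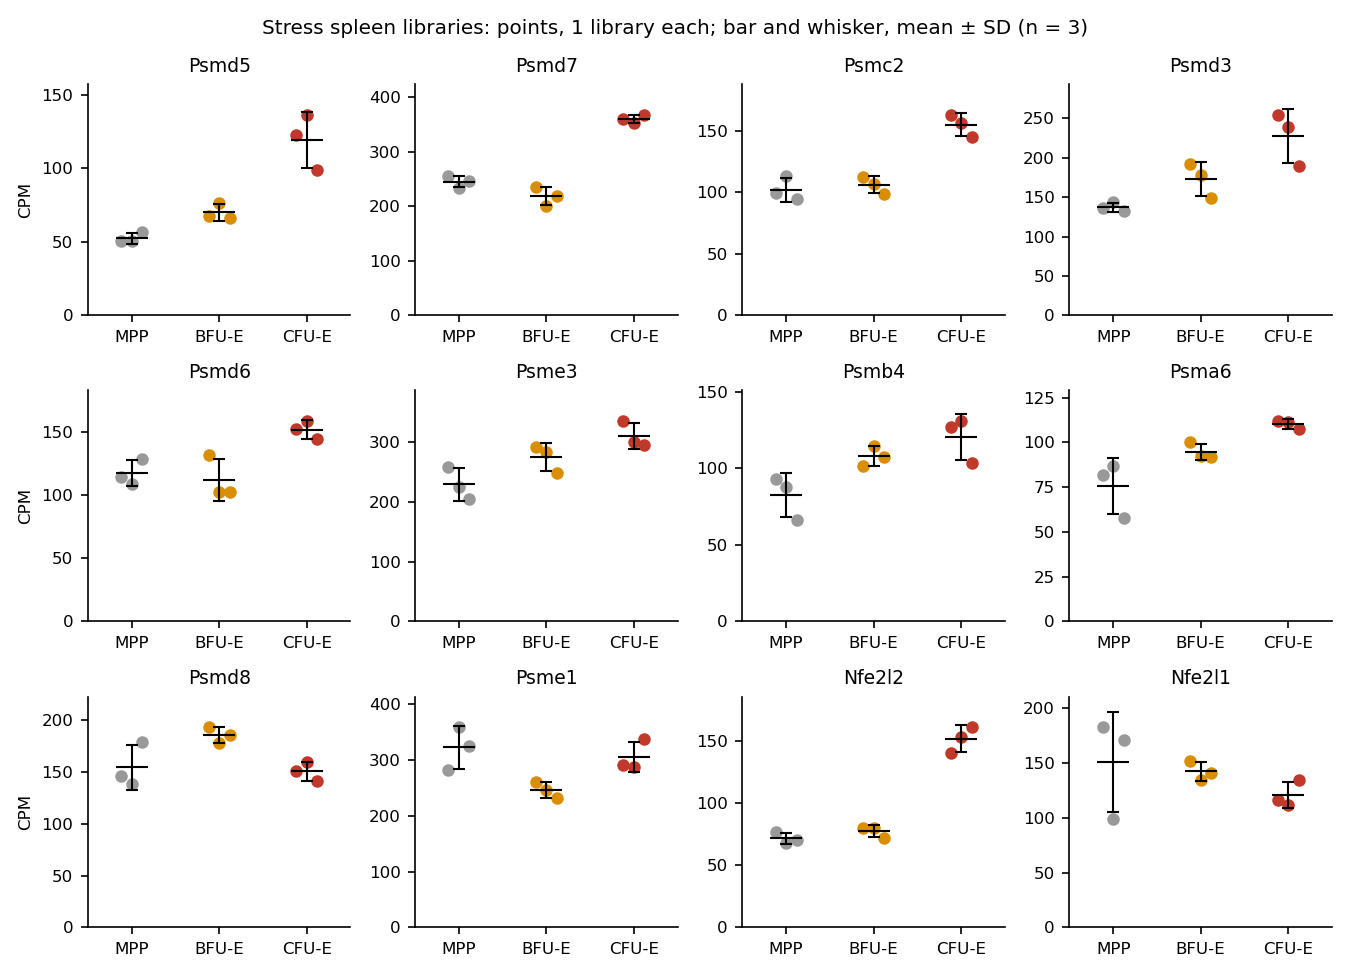
CPM of 10 proteasome genes and of the regulators Nfe2l2 and Nfe2l1 in the 9 stress spleen libraries; points are libraries, and the bar and whisker are mean ± SD (n = 3). Psmd5, Psmd7, Psmc2 and Nfe2l2 are set apart in CFU-E, Psmd8 is highest in BFU-E, and Psme1 is lowest in BFU-E.

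Between CFU-E and MPP, 11 of the 45 genes were higher in CFU-E and 0 were lower by the edgeR test, against 28.8% of all genes tested, 12.7% higher and 16.0% lower. DESeq2 called the same genes higher and also Psmb3, Psmd12, Psmd2 and Psmg3. Its share over all genes was not calculated for this comparison. The CFU-E libraries are the ones used in the comparison above. An unadjusted p under 0.05 was reached by 15 genes (33.3%, against 38.3% of all genes). The log2 fold change was above 0 for 40 of 45 genes (88.9%, against 5081 of the 10166 genes tested), with a median of 0.30, against 0 over all genes. In 17 genes every CFU-E library lay above every MPP library (37.8%, against 19.1% of all genes), and in 0 genes did every one lie below (against 21.2%). By role, the calls were 4 of 11 other regulatory particle subunits, 2 of 8 alpha-ring, 2 of 7 beta-ring, 1 of 6 ATPase, 1 of 5 activator or inhibitor and 1 of 7 chaperone genes.

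Psmd5 had the largest called difference. Its 122, 136 and 99.0 CPM in CFU-E stood against 50.4, 50.3 and 56.5 CPM in MPP, well apart, for a log2 fold change of 1.19 ± 0.16, or 2.28-fold (edgeR adjusted p = 8.93e-06). Psmd3 had 255, 240 and 189 CPM in CFU-E, against 136, 143 and 132 CPM in MPP. The groups did not overlap here (log2 fold change 0.73 ± 0.13, edgeR adjusted p = 0.000199). Psmc2, with 99.0, 113 and 94.2 CPM in MPP, had a log2 fold change of 0.60 ± 0.13 (edgeR adjusted p = 0.00124), and Psmd7 had 0.55 ± 0.10 (edgeR adjusted p = 0.000231). For Psmd5 the BFU-E libraries lay between those of the other 2 populations. For Psmd3 they lay above MPP and overlapped with CFU-E, and for Psmc2 they overlapped with MPP.

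Psme3, which forms the nuclear activator of the core, had 336, 300 and 296 CPM in CFU-E, against 258, 225 and 204 CPM in MPP. All CFU-E libraries were the higher (log2 fold change 0.44 ± 0.11, edgeR adjusted p = 0.00521). This call, like those of Psmd5, Psmd3, Psmc2 and Psmd7, held with any single library left out. In the core, Psmb4 had 127, 131 and 103 CPM in CFU-E, against 93.2, 87.9 and 66.2 CPM in MPP. The log2 fold change was 0.54 ± 0.15 (edgeR adjusted p = 0.0104). Psma6 had 112, 112 and 107 CPM in CFU-E, against 81.8, 87.1 and 57.8 CPM in MPP (log2 fold change 0.55 ± 0.16, edgeR adjusted p = 0.0116). Both calls were lost without MPP library 3 and held with any other single library left out.

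The other 4 calls lay close to the threshold. Psma5, with 2 near-identical copies (chr3:108256926-108279952, plus strand), had 23.2, 20.1 and 16.2 CPM in CFU-E, against 6.60, 7.95 and 13.8 CPM in MPP. The groups were apart (log2 fold change 1.07 ± 0.40, edgeR adjusted p = 0.0477). Psmd6, Psmd1 and Psmb1 had log2 fold changes of 0.37, 0.29 and 0.38 with edgeR adjusted p of 0.0439, 0.0448 and 0.0435, and the Psmb1 groups overlapped. These 4 genes were called in only 1 or 2 of the 6 fits that left out a library, and without MPP library 1, or without CFU-E library 1, the number called was 7. Of the 32 tested genes without a near-identical copy, 9 were called in this comparison and 5 in the one against BFU-E.

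Between BFU-E and MPP of the stress spleen, 0 of the 45 genes passed the edgeR test in either direction, against 4.13% of all genes (2.03% higher and 2.11% lower). DESeq2 called 1 lower, Psme1, against 8.36% of all genes it tested (4.0% higher and 4.37% lower). At an unadjusted p under 0.05 there were 8 (17.8%, against 15.8% of all genes), and the median log2 fold change was 0.10 with 27 of 45 genes above 0 (60.0%, against a median of 0 and 49.8% over all genes). Psme1 had 260, 246 and 232 CPM in BFU-E, against 282, 359 and 325 CPM in MPP. Every BFU-E library was the lower, at a log2 fold change of -0.39 ± 0.11 (edgeR adjusted p = 0.0507, DESeq2 adjusted p = 0.00477). In CFU-E it had 291, 287 and 336 CPM, which put BFU-E lowest of the 3 populations (CFU-E against BFU-E 0.31 ± 0.11, edgeR adjusted p = 0.0503). Psmd5 had 67.3, 76.5 and 66.2 CPM in BFU-E, which did not overlap with MPP (log2 fold change 0.42 ± 0.16, edgeR adjusted p = 0.179).

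The most abundant genes of the other roles differed little between BFU-E and MPP. Psmc3, an ATPase, had 257, 232 and 229 CPM in BFU-E, against 240, 269 and 245 CPM in MPP. Psmd1, a large scaffold subunit that docks ubiquitin receptors, had 305, 368 and 295 CPM in BFU-E, against 308, 288 and 337 CPM in MPP. Both groups of libraries overlapped. Psma7 and Psmb1 likewise overlapped, at 172, 189 and 177 CPM for Psma7 and 114, 95.0 and 127 CPM for Psmb1 in MPP beside the BFU-E values above.

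**Figure D3:**
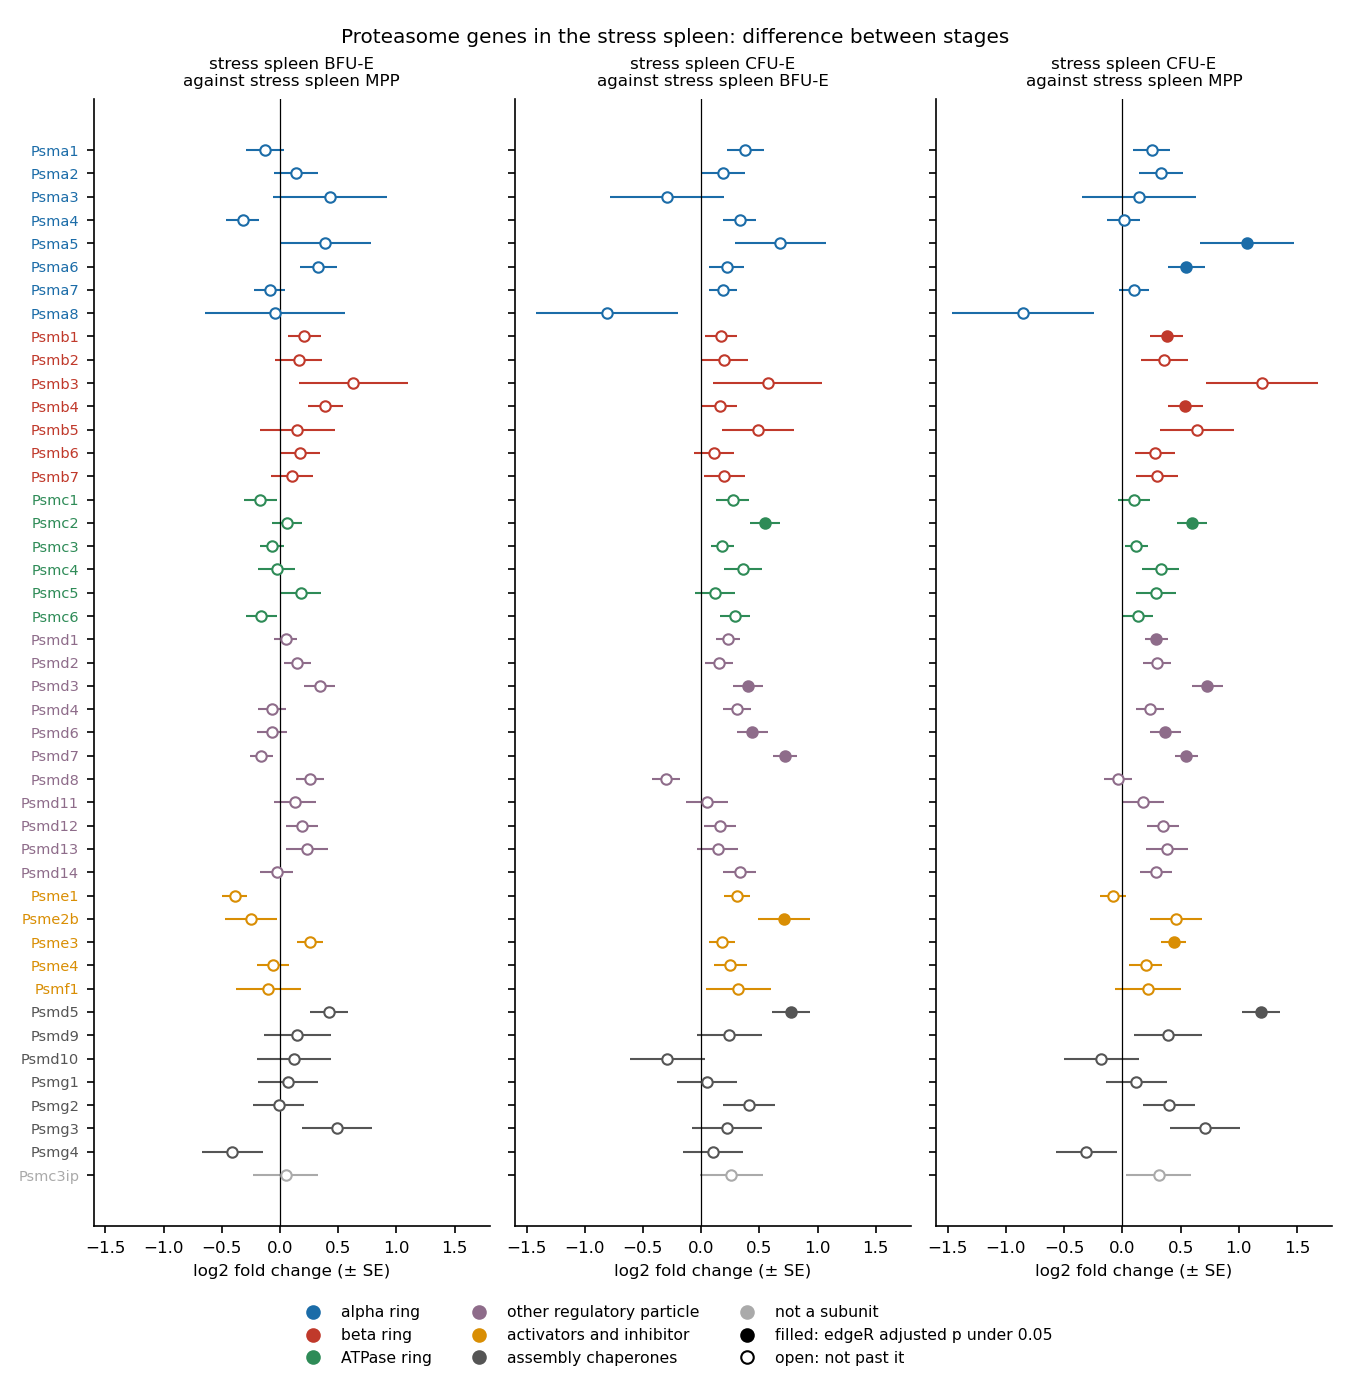
Log2 fold change ± SE (edgeR) of the 45 tested proteasome genes in the 3 comparisons of the stress spleen, grouped and coloured by role; filled points passed an adjusted p of 0.05. In the middle and right panels most points lie right of 0 (41 and 40 of 45), with 6 and 11 filled, while in the left panel 27 lie right of 0 and 0 are filled.

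Summed over the 45 genes, proteasome RNA stood at 4334, 4687 and 4416 CPM in MPP, at 4756, 4674 and 4278 CPM in BFU-E and at 5702, 5556 and 5259 CPM in CFU-E. Each CFU-E library lay above every library of the other 2 populations, and MPP and BFU-E overlapped. The means were 4479 ± 184, 4569 ± 255 and 5506 ± 226 CPM (SD, n = 3 each). Sums weight each gene by its abundance, and in RNA from sorted pools fewer cells of a type and less RNA per cell cannot be told apart. Markers of other cell types moved between the same populations. The 8 myeloid markers summed to 97.3 to 466 CPM in MPP, 688 to 809 CPM in BFU-E and 26.4 to 70.7 CPM in CFU-E. The 6 megakaryocyte markers summed to 858 to 1009, 1498 to 1771 and 75.4 to 87.1 CPM in that series, and the 7 stem and multipotent markers to 350 to 415, 113 to 131 and 26.6 to 40.7 CPM. The 8 macrophage markers stayed between 15.5 and 30.8 CPM in all 3 populations, with C1qb and Marco at 0 in each. The 6 mast cell and basophil markers did not exceed 20.2 CPM, with Cma1 at 0. The part of these differences in the proteasome result was not tested.

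The catalytic subunits were taken on their own, since they carry the proteolytic sites. Psmb5, with the chymotrypsin-like site (chr14:54614120-54617995, minus strand), had 20.2, 26.5 and 31.3 CPM in CFU-E, against 17.1, 22.3 and 16.2 CPM in BFU-E and 22.0, 15.9 and 11.9 CPM in MPP. The groups overlapped, with edgeR adjusted p of 0.309 for CFU-E against BFU-E and 0.141 for CFU-E against MPP. Psmb6, with the caspase-like site (chr11:70525357-70527858, plus strand), had 104, 117 and 108 CPM in CFU-E, against 105, 121 and 79.6 CPM in BFU-E and 102, 67.6 and 101 CPM in MPP. The CFU-E libraries lay above those of MPP by a small margin (edgeR adjusted p = 0.254) and overlapped with BFU-E. Psmb7, with the trypsin-like site (chr2:38588046-38643906, minus strand), had 72.2, 54.8 and 67.4 CPM in CFU-E, against 61.7, 56.5 and 50.4 CPM in BFU-E and 49.6, 50.4 and 57.7 CPM in MPP, and again the libraries overlapped.

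Per length, in the series MPP, BFU-E and CFU-E, Psmb5 averaged 10.7, 11.6 and 16.0 RPKM, Psmb6 48.8, 53.9 and 57.6 RPKM and Psmb7 30.3, 32.0 and 36.5 RPKM. Psmb5, the lowest of the 3, has 2 other copies of its sequence in the genome, the closest 99.0% identical, and their part in its level was not tested. The inducible subunits that replace these in the immunoproteasome are Psmb8 for Psmb5, Psmb9 for Psmb6 and Psmb10 for Psmb7. Psmb8 averaged 79.3, 87.3 and 78.6 RPKM, Psmb9 24.6, 25.3 and 24.0 RPKM and Psmb10 20.5, 20.8 and 26.7 RPKM in the same order. None of the 3 constitutive and 3 inducible genes passed the edgeR test in any of the 3 spleen comparisons. Psmb8 stood above Psmb5 in all 9 libraries, and Psmb6 stood above Psmb9 in all 9.

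**Figure D4:**
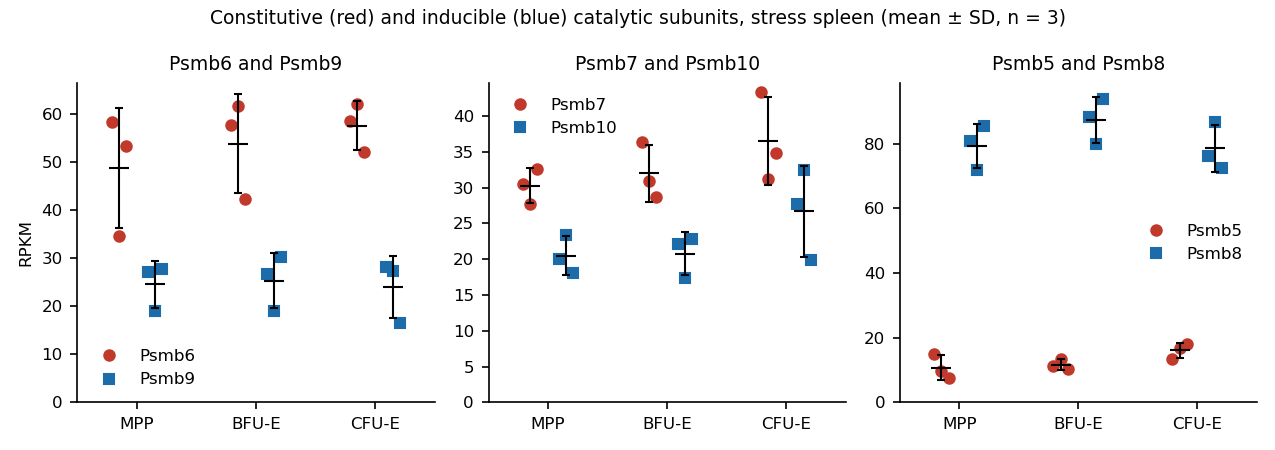
RPKM of the constitutive catalytic subunits (red circles) and their inducible counterparts (blue squares) in the 3 libraries of each stress spleen population, with mean ± SD. Psmb8 lies far above Psmb5 at every stage (87.3 against 11.6 RPKM in BFU-E), while Psmb6 lies above Psmb9 (53.9 against 25.3 RPKM).

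Other genes of the pathway were followed as a list of 44 that covers ubiquitin, its activation, shuttle factors, proteasome-bound proteins, regulators of subunit genes and erythroid ubiquitin enzymes; 41 were tested. Between CFU-E and BFU-E, 5 were higher and 2 lower in CFU-E (12.2% and 4.88%, against 9.17% and 11.9% of all genes). Between CFU-E and MPP, 8 were higher and 1 was lower (19.5% and 2.44%, against 12.7% and 16.0%). Between BFU-E and MPP, 0 passed the edgeR test (against 4.13% of all genes), 2 had an unadjusted p under 0.05 (4.88%, against 15.8%) and DESeq2 called 2 of 41 (against 8.36%).

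Of the transcription factors that bind antioxidant response elements, Nfe2l2, known for the response to oxidative stress, had 140, 154 and 162 CPM in CFU-E, against 80.4, 80.0 and 72.0 CPM in BFU-E. The groups were far apart, at a log2 fold change of 0.97 ± 0.14 (edgeR adjusted p = 1.69e-05), and MPP lay with BFU-E at 76.8, 68.2 and 70.5 CPM. Nfe2l1, known for inducing subunit genes when the proteasome is inhibited, had 116, 112 and 134 CPM in CFU-E, against 152, 135 and 141 CPM in BFU-E and 183, 99.2 and 171 CPM in MPP. Each CFU-E library was below each BFU-E library by a small margin and the difference was not called (log2 fold change -0.24 ± 0.17, edgeR adjusted p = 0.369). Against MPP it was -0.33 ± 0.17 (edgeR adjusted p = 0.16), and without MPP library 2 it was -0.56 and passed (adjusted p = 0.00315). Ddi2, the protease that activates Nfe2l1, was higher in CFU-E than in BFU-E libraries (log2 fold change 0.42 ± 0.14, edgeR adjusted p = 0.0411), and the call was lost with each single library left out. Pomp, the chaperone of core assembly, had 143, 138 and 138 CPM in CFU-E, against 110, 95.0 and 127 CPM in BFU-E. It stood higher in every CFU-E library without passing the edgeR test (log2 fold change 0.34 ± 0.14, adjusted p = 0.0942).

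Of the factors that deliver or bind substrates, Txnl1, a thioredoxin-like protein of the regulatory particle, had 231, 215 and 189 CPM in CFU-E, against 141, 131 and 156 CPM in BFU-E libraries (log2 fold change 0.57 ± 0.13, edgeR adjusted p = 0.0026). Ufd1l, a cofactor of the ATPase that extracts ubiquitinated proteins, had 65.1, 65.9 and 43.6 CPM in CFU-E, against 28.8, 30.7 and 32.7 CPM in BFU-E (0.92 ± 0.22, edgeR adjusted p = 0.00427). In both genes the populations were apart. Uba1, the main ubiquitin-activating enzyme, was higher in CFU-E than in BFU-E at a log2 fold change of 0.30 ± 0.09 (edgeR adjusted p = 0.0197), a call lost without CFU-E library 1, BFU-E library 2 or BFU-E library 3. The other calls of this comparison in the pathway list, Ddi2 aside, held with any single library left out. The genes called lower were Zfand5, which binds the proteasome through zinc fingers, with 119, 105 and 121 CPM in CFU-E against 173, 188 and 191 CPM in BFU-E (-0.68 ± 0.13, edgeR adjusted p = 0.000518), and the erythroid ubiquitin ligase Trim58, with 21.9, 42.8 and 32.3 CPM in CFU-E against 61.8, 60.5 and 65.9 CPM in BFU-E (-0.96 ± 0.23, edgeR adjusted p = 0.00432). The genes called higher in CFU-E against MPP were Nfe2l2, Txnl1, Ufd1l, Uba1, the shuttle factors Ubqln1, Ubqln4 and Rad23b, and Fbxo7, a ligase subunit that binds the inhibitor Psmf1. Zfand5 was lower (-0.41 ± 0.13, edgeR adjusted p = 0.0196). Of these 9 calls, those of Nfe2l2, Txnl1 and Uba1 held with any single library left out. Ubqln1 was lost without CFU-E library 1 or MPP library 3, and Ubqln4 without CFU-E library 2 or MPP library 2. Ufd1l and Zfand5 were called in 3 of the 6 such fits, and Rad23b and Fbxo7 in 2.

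Between stress spleen BFU-E and BM BFU-E, the comparison of the same stage in stress and steady state, 0 of the 46 proteasome genes passed the edgeR test, against 0.112% of all 10702 genes (0.00934% higher and 0.103% lower). At an unadjusted p under 0.05 there were 7 (15.2%, against 9.84% of all genes), and DESeq2 called 4, namely 2 higher and 2 lower, against 6.5% of the 10540 genes it tested (2.5% higher and 3.99% lower). Data were simulated with the dispersion fitted to each gene, the same in both groups, and with changes set in 200 genes drawn from all 10702. The wider spread of the BM libraries than of the stress libraries was not simulated. The edgeR test recovered 2% of the 2-fold and 26% of the 4-fold changes, so that most such changes in genes drawn this way went undetected. The rate for proteasome genes alone, which are more abundant than the median gene, was not simulated. The log2 fold change was above 0 for 30 of 46 genes (65.2%, against 50.7%), with a median of 0.22, against 0.01 over all genes. The groups stood apart with stress higher in 10 genes (21.7%, against 12.8%) and with stress lower in 2 (4.35%, against 9.08%). By role, the median was 0.43 for the alpha ring, 0.53 for the beta ring, 0.32 for the ATPase ring, 0.06 for the other regulatory particle subunits, -0.11 for the activators and inhibitor and -0.31 for the chaperones.

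CPM were scaled within this table, so the stress values differ slightly from those above. Psmd12, a lid subunit, had 92.9, 102 and 85.9 CPM in stress BFU-E, against 43.9, 51.6 and 33.2 CPM in BM BFU-E. It had the lowest p of the proteasome genes, with the libraries well apart (log2 fold change 1.12 ± 0.28, edgeR adjusted p = 0.262, DESeq2 adjusted p = 0.000888). Psmb2, a beta-ring subunit, had 69.7, 60.8 and 48.1 CPM in stress BFU-E, against 25.1, 13.0 and 5.07 CPM in BM BFU-E (2.05 ± 0.61, edgeR adjusted p = 0.329, DESeq2 adjusted p = 0.00752). Psmg4, an assembly chaperone, had 22.7, 27.3 and 24.5 CPM in stress BFU-E, against 72.4, 40.2 and 105 CPM in BM BFU-E, so that all stress libraries were the lower (-1.54 ± 0.42, edgeR adjusted p = 0.295, DESeq2 adjusted p = 0.00494). Psme1 had 263, 250 and 237 CPM in stress BFU-E, against 623, 223 and 703 CPM in BM BFU-E. BM library 2 lay below the stress libraries and the other 2 far above them (-1.05 ± 0.37, edgeR adjusted p = 0.402, DESeq2 adjusted p = 0.0298).

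The most abundant gene of each other role was spread widely in BM. Psma7 had 163, 178 and 169 CPM in stress BFU-E, against 80.9, 130 and 217 CPM in BM BFU-E. Psmc3 had 261, 236 and 233 CPM in stress BFU-E, against 106, 191 and 305 CPM in BM BFU-E. Psmb1 had 122, 135 and 139 CPM in stress BFU-E, against 68.0, 103 and 102 CPM in BM BFU-E. The stress libraries of these genes lay close together, and those of Psmb1 alone were all above BM. Psmd1 had 309, 375 and 300 CPM in stress BFU-E, against 352, 220 and 316 CPM in BM BFU-E, and Psmd5 had 68.1, 77.9 and 67.4 CPM in stress BFU-E, against 92.3, 61.2 and 111 CPM in BM BFU-E. Both overlapped. Of the catalytic subunits, Psmb5 had 17.3, 22.7 and 16.5 CPM in stress BFU-E, against 3.63, 18.9 and 0 CPM in BM BFU-E, with 1 BM library inside the stress range. Psmb6 had 106, 123 and 81.0 CPM in stress BFU-E, against 44.5, 59.8 and 128 CPM in BM BFU-E. Psmb7 had 62.5, 57.5 and 51.3 CPM in stress BFU-E, against 40.4, 44.1 and 65.9 CPM in BM BFU-E. BM library 3 was the highest of all for both genes.

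Summed over the 46 genes, proteasome RNA stood at 4820, 4760 and 4363 CPM in stress BFU-E and at 4324, 3679 and 5544 CPM in BM BFU-E, which gives means of 4647 ± 248 and 4516 ± 947 CPM (SD, n = 3 each). The spread between BM libraries was larger than the difference. The 3 macrophage markers listed in that table summed to at most 30.8 CPM in stress and to 45.4 to 108 CPM in BM libraries, and the 8 myeloid markers to 700 to 823 CPM in stress and 727 to 1881 CPM in BM libraries. The 5 stem and multipotent markers listed there summed to 115 to 132 CPM in stress and 273 to 349 CPM in BM libraries. The 6 megakaryocyte markers summed to 1524 to 1802 CPM in stress and 1647 to 2595 CPM in BM libraries, with Ppbp at 0 in BM, and the 4 mast cell and basophil markers to 5.15 to 17.4 CPM in stress and 7.39 to 145 CPM in BM libraries. Their part in these values was not tested. Of the pathway list, 0 of 41 genes passed the edgeR test (against 0.112% of all genes), 6 had an unadjusted p under 0.05 (14.6%, against 9.84%) and DESeq2 called 4 (against 6.5%). Nfe2l2 had 81.4, 81.4 and 73.3 CPM in stress BFU-E, against 71.2, 56.0 and 7.68 CPM in BM BFU-E. Nfe2l1 had 154, 137 and 143 CPM in stress BFU-E, against 100, 187 and 157 CPM in BM BFU-E, and Pomp had 111, 96.6 and 129 CPM in stress BFU-E, against 108, 92.1 and 265 CPM in BM BFU-E. Every stress library lay above every BM library for Nfe2l2 alone, and none of these 3 passed (edgeR).

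The direction of this comparison depends on which deposited table supplies the BM values. The RPKM table of the BFU-E libraries and the table of all 12 libraries hold the same stress values, but 43 of the 47 proteasome genes had the higher BM mean in the table of 12 libraries. Psmb5 had 11.2, 13.5 and 10.2 RPKM in stress BFU-E in both tables, against 2.21, 11.4 and 0 RPKM in BM BFU-E in the BFU-E table and 113, 49.8 and 69.0 RPKM in the table of 12 libraries. The stress libraries lay above or among the BM values of 1 table and far below those of the other. Psmd12 had 30.4, 30.7 and 27.0 RPKM in stress BFU-E, against 13.8, 15.7 and 10.4 RPKM in BM BFU-E in the BFU-E table and 138, 107 and 152 RPKM in the table of 12 libraries. In a limma fit of log2(RPKM + 1) to the table of 12 libraries, 1 of 46 genes was called higher in stress BFU-E (Psme4, the large activator of the core) and 41 lower, at a median of -1.70. Of the 10823 genes in that fit, 63.7% were called, 13.0% higher and 50.7% lower, with a median of -0.95. Of the 46 genes, 29 were above 0 in the count fit and below 0 in this one. The same count over all genes was not calculated, and their median was 0.01 in the count fit and -0.95 in this one. Ribosomal RNA differed between the same columns: Rn45s, the rRNA precursor, was listed at 175 to 297 RPKM in BM in the table of 12 libraries and at 7206 to 14192 RPKM in the BFU-E table, while stress libraries held 9547 to 10310 RPKM in both. Its part in the difference between the tables was not tested. Since the 2 tables disagree, neither direction is reported as a difference between stress and steady-state BFU-E.

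**Figure D5:**
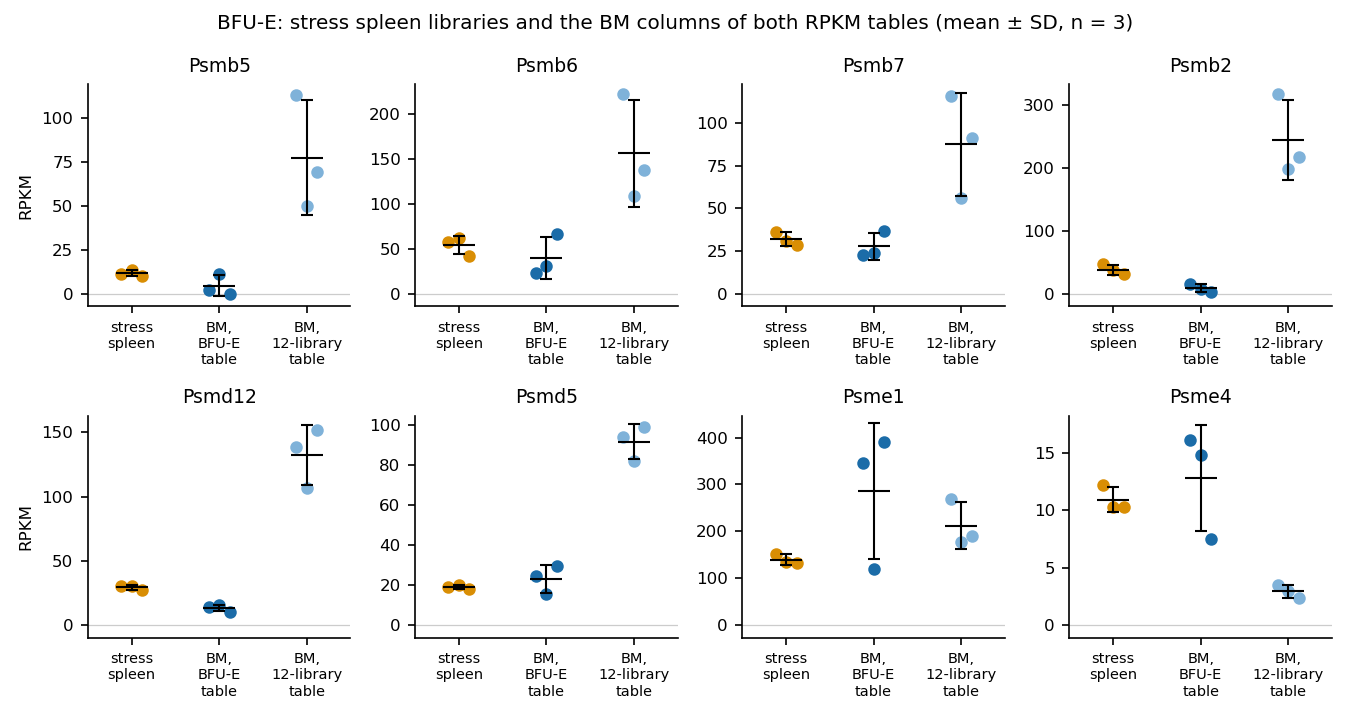
RPKM of 8 proteasome genes in stress spleen BFU-E (yellow), in the BM columns of the BFU-E table (dark blue) and in the BM columns of the table of 12 libraries (light blue); points are libraries, bars are mean ± SD (n = 3). For Psmb5, Psmb6, Psmb7, Psmb2, Psmd12 and Psmd5 the light blue points lie above all others, and for Psme4 they lie below.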

How the data were processed

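Per the file headers, the authors counted reads over exons with HOMER, 1 transcript per gene, on mm10. The submitters' processing notes name HOMER 4.8, STAR 2.6.0b-1, DESeq2 without a version and Bowtie2 2.3.4.2, with no steps. The deposited tables hold raw counts (9 spleen libraries; 6 BFU-E libraries, kept by the authors on a mean of 50 counts) and RPKM, scaled by the authors to length and library size. The deposited ATAC lists hold 1 merged list for each population, with the score of each peak and its distance to a start site. The peak caller is not given in the sources used here.

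Counts were tested with edgeR 4.0.16 (R 4.3.3; TMM factors, quasi-likelihood test) over all genes, with Benjamini-Hochberg adjustment and a threshold of 0.05. The spleen populations shared 1 fit of 10166 genes with a mean of at least 50 counts. The BFU-E fit used 10702 genes. SEs of log2 fold changes were approximated as |log2 fold change| / sqrt(F). The fits were tested on simulated counts. Alternatives were DESeq2 1.42.0 with a local dispersion trend (chosen after the parametric trend proved unstable), RLE size factors, limma 3.58.1 on log2(RPKM + 1) and log2(RPKM + 0.1), other filters and single libraries left out. Copies were found by aligning transcripts with minimap2 2.31. Promoters came from RefSeq.

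Members, lists, tests and the naming rule were chosen with earlier results of these data known. Per-library values were given for the largest called rise and fall per role, or the most abundant member where none was called, for the catalytic subunits, and for the largest called pathway changes with Nfe2l1, Nfe2l2 and Pomp. All other named genes, including those at the top or bottom of the RPKM order, were picked after their values were seen. Library numbers were not taken as pairing the samples. A BM column of the BFU-E RPKM table carries no number and was used without one.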

Additional observations from a re-analysis of the deposited data

How the results depend on the processing

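For the counts of called genes, the median log2 fold changes and the peak counts, 151 recalculations stayed within 1.5 times or the spread and 24 did not. Stress against BM BFU-E changed most. DESeq2 called 4 proteasome and 4 pathway genes, and the table of 12 libraries, an alternative chosen after seeing the data, gave 42 and 31 calls and a median of -1.70. In that table the log2 fold change was -1.87 for Psma7, -1.23 for Psmb1, -1.53 for Psmc3, -0.80 for Psmd1, -2.56 for Psmb5, -1.47 for Psmb6, -1.37 for Psmb7 and -1.38 for Nfe2l2, each the opposite of the sign in the counts. For Psmb10 it was -2.34, against 0.0 in the counts. The cause was not tested. For BFU-E against MPP, 1 proteasome gene, Psme1, was called with DESeq2, with a mean of at least 200 counts, with no filter and with protein-coding genes only (added after seeing the data), and DESeq2 called 2 pathway genes. For CFU-E against BFU-E, DESeq2 called 11. For CFU-E against MPP, 7 were called both with a mean of at least 200 counts and with the 2 groups alone, where the fit of 2 groups has fewer libraries. Peaks within 100 bp of the start were present for 19 proteasome genes in stress BFU-E, 18 in BM BFU-E and 15 in both (40.4%, 38.3% and 31.9%, against 35.7%, 32.3% and 22.8% of 10162 genes).

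With single libraries left out, the calls among proteasome genes ranged from 0 to 0 for stress against BM BFU-E, 0 to 1 for BFU-E against MPP (1 without MPP library 1), 3 to 7 for CFU-E against BFU-E and 7 to 10 for CFU-E against MPP. Pathway calls ranged from 0 to 1 (1 without BM library 2), 0 to 0, 5 to 8 and 5 to 9 (5 without CFU-E library 1 or 2) in the same order. The medians stayed between 0.19 and 0.28, 0.02 and 0.15, 0.20 and 0.28, and 0.28 and 0.39. The numbers were not taken as pairing, since not every correlation between deviations of same-numbered libraries was over 0.1. These were -0.034 to -0.022 between stress and BM BFU-E and 0.015 to 0.134, all positive, in the spleen, where libraries of different numbers gave -0.093 to 0.03. CFU-E library 2 correlated better with MPP library 3 than with MPP library 2. The names of the spleen libraries carry the same numbers in each population. Whether a number marks a shared spleen is not stated, and these correlations do not exclude it. With the replicate number as a block, 0, 0, 6 and 11 proteasome and 0, 0, 9 and 9 pathway genes were called, and the medians were 0.37, 0.12, 0.23 and 0.31. For single genes, 806 values kept direction and side of the threshold, 13 passed it anew, 17 no longer passed, 54 uncalled values crossed 0 and 9 reversed. With 3 libraries a group, low counts and the spread of the BM libraries limit what could be detected.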
